A study of Mus musculus with 2 samples.

Results

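Tnf, Il1b, Il1rn, Il6, Il18, Nos2, Ptgs2, Csf1, Csf3 and Tgfb1 are 10 genes of secreted cytokines and of enzymes that make inflammatory mediators in macrophages. They were taken by gene symbol from a deposited table of 24034 genes, and all 10 were found in it, each in 1 row. The table holds 2 libraries made from the mouse monocyte/macrophage line RAW264.7, one labelled SFRS8 siRNA and one labelled negative control. SFRS8 is an older symbol of Sfswap, an alternative splicing regulator. Both libraries came from cells grown in DMEM with 10% fetal bovine serum, penicillin and streptomycin, and both titles carry a mark of 5 d whose starting point the labels leave out. The labels name no inflammatory stimulus such as endotoxin. The title of the control library says WT, and the labels do not say whether those cells received a control siRNA. Each group was 1 library of 1 established line, so nothing below has a replicate check and no test between conditions was made.

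Macrophages make these products in response to microbial and cytokine signals, largely through NF-kB, AP-1 and C/EBP transcription factors. TNF, IL-1β and IL-6 start and spread inflammation, IL-1 receptor antagonist blocks the IL-1 receptor, and TGF-β1 restrains many macrophage responses. Many of the mRNAs carry AU-rich elements in the 3′ UTR, stretches of repeated AUUUA to which decay factors such as tristetraprolin (Zfp36) bind. RAW264.7 cells are widely used to study TNF and nitric oxide production.

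The AU-rich stretches are shown because they set these mRNAs apart from one another. They were read from the longest coding transcript of each gene in GENCODE vM21 (GRCm38), as DNA letters on the mRNA strand. Each is the 30-base stretch of the 3′ UTR with the most copies of the longer motif TTATTTATT, and then of ATTTA. Capitals mark each ATTTA.
Tnf, chr17:35199679-35199708, minus strand: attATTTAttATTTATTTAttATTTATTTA
Ptgs2, chr1:150105794-150105823, plus strand: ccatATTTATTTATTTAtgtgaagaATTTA
Csf3, chr11:98702984-98703013, plus strand: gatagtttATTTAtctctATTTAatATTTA
Il1b, chr2:129364808-129364837, minus strand: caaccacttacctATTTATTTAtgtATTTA
The Tnf stretch held 5 ATTTA, some of them overlapping, and 4 copies of the longer motif TTATTTATT, the Ptgs2 stretch 4 and 1. The Csf3 and Il1b stretches held 3 ATTTA each and no TTATTTATT.

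The promoters shown are of a gene that was abundant here (Tnf), one near the lower limit (Il1b) and one listed at 0 (Il6). They are the bases just before the annotated start in RefSeq's GRCm38.p6 table, 100 for Tnf and Il1b and 150 for Il6, on the strand of the gene. Capitals mark TATAAA, TTGCNNAA (a C/EBP-type motif) and the NF-kB consensus motif, each searched on both strands.
Tnf, chr17:35202008-35202107, minus strand: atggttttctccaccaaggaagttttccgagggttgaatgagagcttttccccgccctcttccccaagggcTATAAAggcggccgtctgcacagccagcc
Il1b, chr2:129371140-129371239, minus strand: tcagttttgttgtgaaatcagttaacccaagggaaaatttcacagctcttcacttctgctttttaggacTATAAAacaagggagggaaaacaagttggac
Il6, chr5:30012964-30013113, plus strand: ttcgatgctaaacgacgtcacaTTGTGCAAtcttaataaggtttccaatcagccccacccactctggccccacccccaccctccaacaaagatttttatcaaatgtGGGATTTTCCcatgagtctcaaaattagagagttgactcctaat
TATAAA began 29 bases before the start of Tnf (position -29) and 31 before that of Il1b (position -31). In Il6 the NF-kB motif began at position -44 and the C/EBP-type motif at -128.

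The 10 genes ranged from abundant to not detected. Levels are FPKM, fragments scaled to transcript length and library size, as deposited. Nos2 (inducible nitric oxide synthase) was the most abundant of them, at 64.6 FPKM against 70.2 FPKM, where the siRNA-labelled library comes first here and throughout. Tnf stood at 58.4 against 43.1 FPKM, and Tgfb1 at 50.4 against 58.1 FPKM. These 3 genes ranked between place 753 and place 1166 among the 24034 genes. Ptgs2 (cyclooxygenase 2, which starts prostaglandin synthesis) followed at 26.5 against 24.3 FPKM, and Il18, a cytokine stored as an inactive precursor, at 7.73 against 7.38 FPKM. Csf3 (G-CSF, the growth factor of neutrophils) stood at 2.55 against 5.85 FPKM and Il1rn, the receptor antagonist, at 1.15 against 2.01 FPKM.

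The remaining 3 genes had a mean below 1 FPKM and were left out of counts of differences. Il1b stood at 0.645 against 0.788 FPKM, from 78 and 93 counts. Csf1 (M-CSF, the growth factor of macrophages) stood at 0.0866 against 0.0877 FPKM, from 29 counts in each library. Il6 was listed at 0 FPKM and 0 counts in both libraries. With about 4 counts per read pair, the libraries held 13852800 and 13711842 read pairs. A count of 0 leaves room for an expected number of about 3 read pairs in each.

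The order of levels was the same in both libraries apart from Tnf and Tgfb1, which changed places. Tnf was above Tgfb1 in the siRNA-labelled library and below it in the control library, and in each library the 95% counting intervals of the pair did not overlap. Neighbours whose intervals overlapped were Il1rn and Il1b in the siRNA-labelled library (0.936 to 1.41 FPKM for Il1rn and 0.394 to 0.997 FPKM for Il1b) and Il18 and Csf3 in the control library (6.10 to 8.86 and 4.87 to 6.97 FPKM). Intervals here and below were made on read pairs and cover counting error only, not the spread between cultures.

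**Figure D1:**
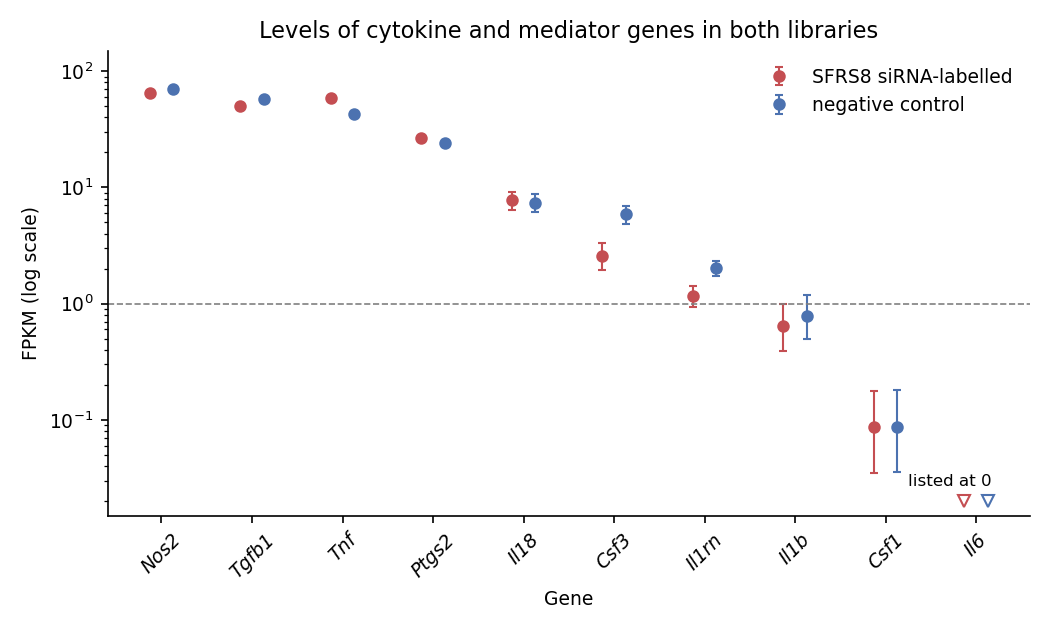
FPKM of the 10 genes on a log scale, in order of their mean, with 1 point per library and bars for the 95% counting interval. The dashed line marks 1 FPKM, and triangles mark Il6, listed at 0 in both libraries; Tnf and Tgfb1 exchange order between the libraries.

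None of the 7 genes whose mean reached 1 FPKM differed by 2-fold or more in log2(FPKM + 1), but Csf3 came close to that limit. Its ratio of counts per library total, which has no added 1, was 0.44 and so past 2-fold. A difference here is the log2(FPKM + 1) of the siRNA-labelled library less that of the control. Among all 10214 genes that reached this mean, 1.97% were 2-fold or more apart (1.18% higher and 0.783% lower in the siRNA-labelled library), so a count of 0 among 7 is no result about these genes. The median difference of the 7 genes was -0.12, with 3 above 0 and 4 below 0, and that of all 10214 genes was 0.11, with 66.9% above 0. At a limit of 1.5-fold 1 of the 7 was apart, Csf3, against 7.09% of all genes. At a limit of 1.2-fold, 1 of the 7 was higher (Tnf; 28.6% of all genes) and 2 were lower (Csf3 and Il1rn; 7.22% of all genes) in the siRNA-labelled library.

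A ratio of counts per library total was computed for each gene with an exact 95% interval. Of the 7 genes, 2 had an interval above 1, 4 an interval below 1, and the interval of Il18 included 1. Among all 10214 genes the shares were 39.4% above, 12.9% below and 47.7% including 1, so at this depth an interval clear of 1 is common. The median ratio over all genes was 1.09.

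Tnf, an early cytokine of activated macrophages, was the gene with the highest difference among the 10. Its counts were 5872 against 4295. It differed by 0.43, with a ratio of counts of 1.35 (1.25 to 1.47), above the median ratio of all genes, and 87.7% of all 10214 genes had lower differences. Tnf (ENSMUSG00000024401, chromosome 17, 35199381 to 35202007, minus strand) lies beside Lta and Ltb, which encode the related lymphotoxins. Ltb stood at 22.4 against 23.8 FPKM, with a ratio of 0.94 (0.83 to 1.06). Lta stood at 0.705 against 0.862 FPKM, with a ratio of 0.82 (0.39 to 1.73). Neither neighbour had an interval above 1.

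Csf3 had the lowest difference of the 10 genes. Its counts were 222 against 503, about 56 and 126 read pairs. It had a difference of -0.95 and a ratio of counts of 0.44 (0.32 to 0.61), and 0.862% of all genes had lower differences. Csf3 (ENSMUSG00000038067) is on chromosome 11, from 98701263 to 98703629, on the plus strand. The pseudocount of 1 shrinks the difference of a gene at this level, and with a pseudocount of 0.1 it was -1.17. Tnf was 22.9 times as abundant as Csf3 in the siRNA-labelled library and 7.37 times in the control. The ratio of their count ratios was 3.07 (2.20 to 4.33). This pair joins the highest and the lowest difference of the 10 genes, so an interval away from 1 is no separate result.

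In the interleukin-1 group, the antagonist Il1rn had an interval below 1, and Il1b and Il18 had intervals that include 1. Il1rn had 393 against 679 counts, a difference of -0.48 and a ratio of 0.57 (0.44 to 0.74), and 3.09% of all genes had lower differences. Il1b, an agonist it opposes, had a ratio of 0.86 (0.45 to 1.64), which rests on about 20 and 23 read pairs. Il1rn was 1.79 times as abundant as Il1b in the siRNA-labelled library and 2.55 times in the control. The ratio of their count ratios was 0.66 with an interval from 0.33 to 1.35, so a shift in the balance of antagonist and agonist was not detectable at this depth. Il18 had 490 against 464 counts, a difference of 0.06 and a ratio of 1.04 (0.80 to 1.35).

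Both inducible enzymes differed by less than 1.2-fold, Nos2 below and Ptgs2 above 0 as measured. The direction of Ptgs2 did not hold under every alternative described below. Nos2 had 17482 against 18812 counts, a difference of -0.12 and a ratio of 0.92 (0.88 to 0.96). Ptgs2 had 7448 against 6759 counts, a difference of 0.12 and a ratio of 1.09 (1.02 to 1.17), an interval that holds the median ratio of all genes. Tgfb1 had 15590 against 17810 counts, a difference of -0.20 and a ratio of 0.87 (0.83 to 0.90). The intervals of these abundant genes are narrow because each rests on at least 1690 read pairs in each library.

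**Figure D2:**
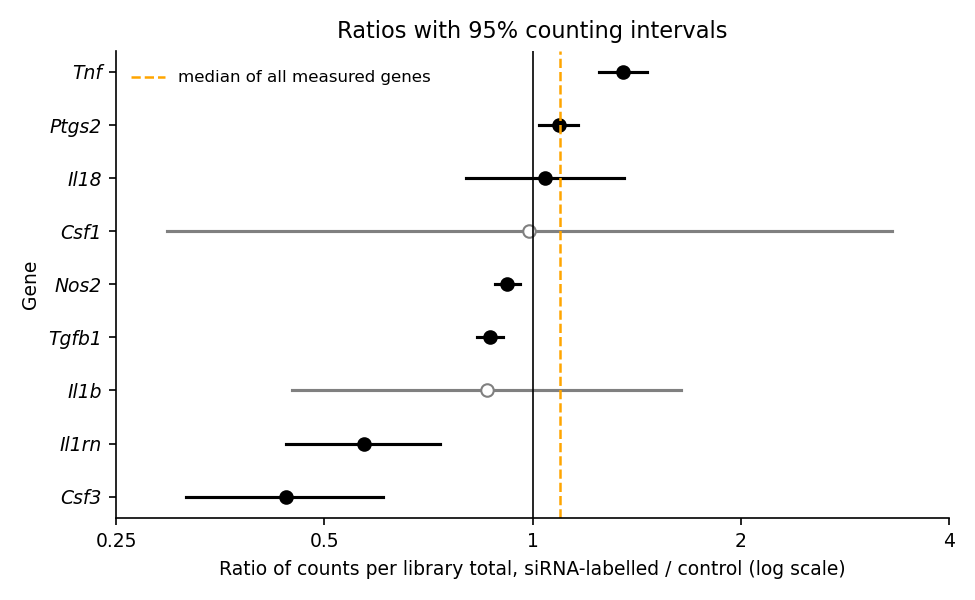
Ratio of counts per library total, siRNA-labelled over control, on a log scale, for the 9 genes with counts. Lines are 95% counting intervals, open grey circles are genes with a mean under 1 FPKM, and the dashed line is the median ratio of all measured genes, 1.09; Csf3 and Il1rn lie to the left and Tnf to the right of both vertical lines.

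**Figure D3:**
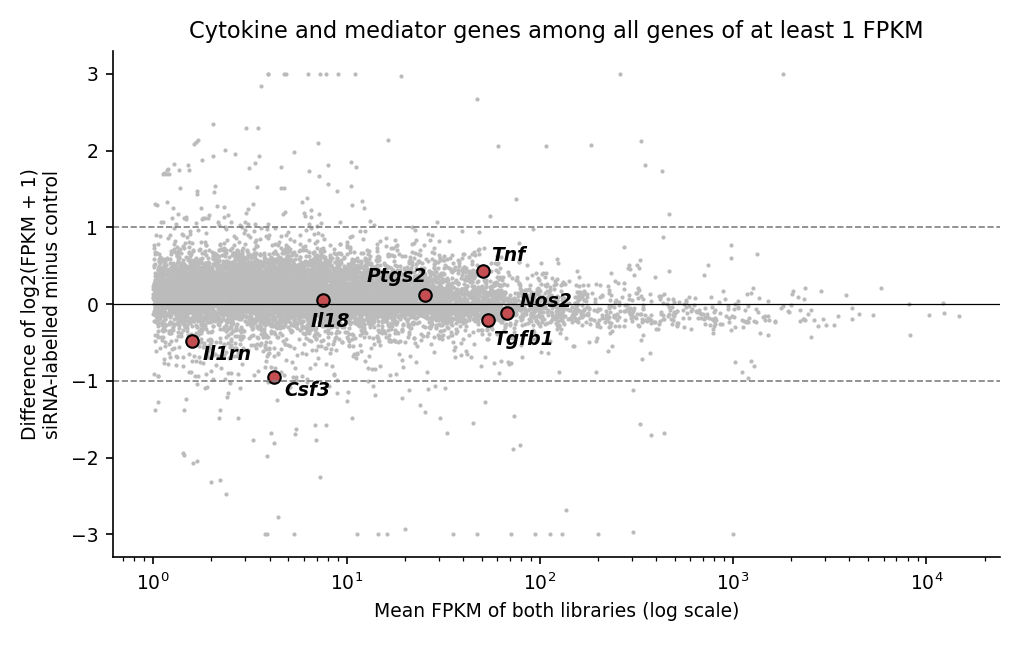
Difference of log2(FPKM + 1) against mean FPKM (log scale) for 10214 genes in grey, with 7 cytokine and mediator genes in red. Dashed lines mark 2-fold, and genes beyond 3 are drawn at the edge; Csf3, at -0.95, is the red point nearest to a dashed line.

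Over the 10214 genes, differences were lower where the longest transcript was richer in G and C, with a Spearman rho of -0.46. This is a relation across genes, which share both libraries and do not replicate one another. The median difference was 0.34 in the tenth of genes with the lowest GC content and -0.03 in the tenth with the highest. The 7 genes ran from 40.0% GC in Ptgs2 to 56.6% in Csf3. After subtraction of the trend Tnf stood at 0.38, Csf3 at -0.93 and Il1rn at -0.80. Ptgs2 and Il18, both from AT-rich transcripts, went from just above 0 to -0.22 and -0.19. The direction of Ptgs2 and Il18 therefore depends on whether the trend is subtracted, and that of the other 5 genes does not. Il18 was also below 0, and Ptgs2 at 0.012, when differences were centred on the median of all genes. Among the related genes described further on, 80 listed entries were measured, of which 45 were above 0 as measured and 33 after subtraction of the trend, and 16 changed sign. The differences of Calm2, Ptges3, Hpgds and Pla2g4a went from 0.62, 0.50, 0.51 and 0.48 to 0.31, 0.20, 0.19 and 0.20. The part of GC content in these differences was not tested.

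**Figure D4:**
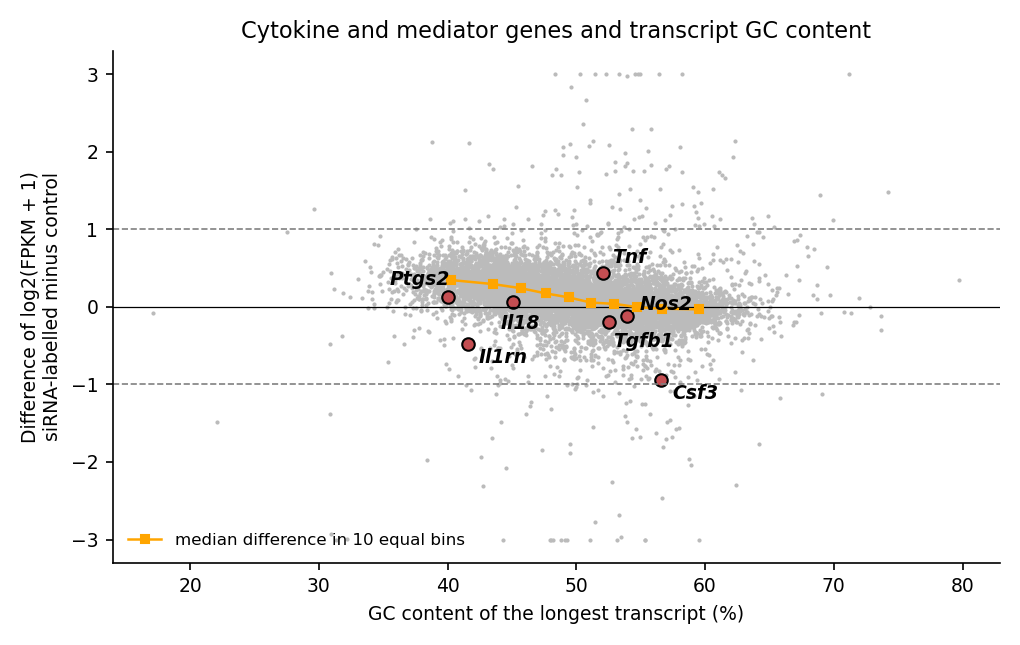
Difference of log2(FPKM + 1) against GC content of the longest transcript for 10214 genes in grey, with the median in 10 equal bins in orange and 7 cytokine and mediator genes in red; genes beyond 3 are drawn at the edge. Ptgs2 and Il18 lie below the orange line although above 0, and Tnf lies above it.

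AU-rich motifs were counted in the 3′ UTRs of these genes, and their part in the differences was not tested. At least 1 ATTTA was found in the 3′ UTR of 9 of the 10 genes, against 66.8% of 8750 measured genes, and the exception was Il1rn, with 0 in 1864 bases. Tnf had 8 in 764 bases, Csf3 6 in 669 and Ptgs2 14 in 2445. TTATTTATT was found 5 times in Tnf and 1 time in Ptgs2. Of genes with a 3′ UTR within 20% of the length of that of Tnf, 4.69% held at least 1 copy, and 10.6% for the length of Ptgs2. Tnf, the gene richest in TTATTTATT, had the highest difference, while Csf3, rich in ATTTA alone, had the lowest, and Il1rn, without either motif, had the next lowest. Over all measured genes the median difference was 0.16 for the 636 with TTATTTATT and 0.12 for the 8114 without. These sets were not matched for GC content or length, and their median 3′ UTRs were 2209.5 and 955 bases. Zfp36, which encodes tristetraprolin, stood at 29.4 against 14.2 FPKM, a ratio of 2.08 (1.90 to 2.27), and its relatives Zfp36l1 at 45.6 against 38.5 FPKM (1.18, 1.11 to 1.26) and Zfp36l2 at 29.0 against 18.1 FPKM (1.60, 1.48 to 1.74). These genes were named with their values known, and their part in the differences was not tested.

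Promoter windows of 250 bases before to 50 bases after the start were found in RefSeq for 8 of the 10 genes, with the exception of Nos2 and Csf3. The NF-kB consensus motif was found in Il6, Csf1 and Tgfb1, and in 8.46% of 32851 windows of all genes. TATAAA was found in Tnf, Il1b, Il18 and 1 of the windows of Il1rn (13.6% of all windows), and it lay on the strand of the gene in Tnf and Il1b. TGANTCA, an AP-1 type motif, was found in Il6 and Il1rn (7.81% of all windows) and TTGCNNAA in Il6 and Ptgs2 (10.8%). TGACGTCA, a CRE-type motif, was found in none of the 8 and in 1.79% of all windows. Of the 3 genes with the NF-kB motif, Il6 was listed at 0, Csf1 stood below 0.1 FPKM and Tgfb1 was abundant. A match or its absence describes the letters of these windows only.

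Among cytokine receptors, Csf1r was the most abundant gene. Of 23 receptor and decoy genes for these and other cytokines, 16 had a mean of at least 1 FPKM, 0 of them were 2-fold apart, and their median difference was 0.16 with 12 above 0. Intervals lay above 1 for 9 and below 1 for 2, against 39.4% and 12.9% of all genes. Of the 16, 8 bind products of the 10 genes, a split made after the values were seen, and among these the intervals of Il6ra, Il6st and Csf3r lay above 1 and those of Csf1r and Tgfbr2 below 1. Csf1r, the receptor of M-CSF, stood at 114 against 133 FPKM (ratio 0.86, 0.83 to 0.88), so the receptor was abundant where the transcript of its ligand Csf1 was below 0.1 FPKM. Tnfrsf1a, the main TNF receptor, stood at 31.3 against 33.4 FPKM (0.93, 0.86 to 1.01). Il6st (gp130, the signalling chain shared by IL-6 family cytokines) stood at 1.91 against 1.08 FPKM (1.76, 1.47 to 2.12). Ifngr1, a chain of the interferon gamma receptor, stood at 2.80 against 1.57 FPKM (1.79, 1.32 to 2.44). Csf3r, the receptor of Csf3, stood at 1.37 against 0.883 FPKM (1.57, 1.08 to 2.30), while Csf3 itself was lower in the siRNA-labelled library. Tgfbr2, a TGF-β receptor, stood at 14.8 against 17.5 FPKM (0.84, 0.79 to 0.90).

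The next list held genes around precursor processing and release (proteases, inflammasome sensors, channels, a pore protein and inactive rhomboids). The 14 measured genes had a median difference of -0.04, with 6 above 0. By log2(FPKM + 1) 0 of them were past 2-fold, although the ratio of counts of Casp4, given next, was above 2. Pycard, also listed, was not in the deposited table. Casp4 (caspase 11 of the mouse, which senses cytosolic endotoxin) stood at 2.66 against 1.25 FPKM (2.09, 1.57 to 2.81), and Casp1, which cuts the IL-1β and IL-18 precursors, at 13.4 against 8.68 FPKM (1.53, 1.28 to 1.84). Nlrp3, an inflammasome sensor, stood at 1.11 against 1.62 FPKM (0.69, 0.50 to 0.95). Gsdmd, whose product forms the pore through which IL-1β leaves the cell, stood at 27.5 against 29.2 FPKM (0.94, 0.86 to 1.03). Adam17, the protease that sheds TNF from the cell surface, stood at 6.73 against 6.13 FPKM (1.10, 0.99 to 1.22), and Rhbdf2, which brings ADAM17 to the surface, at 17.8 against 18.2 FPKM (0.98, 0.91 to 1.05). Casp1 and Casp4, at 41.1% and 38.1% GC, differed by 0.57 and 0.70, and by 0.24 and 0.35 after subtraction of the GC trend. The TNF shedding pair had intervals that include 1.

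Genes around nitric oxide synthesis had a median difference of 0.01 over 14 measured genes, 7 above and 7 below 0. Gchfr, which regulates GTP cyclohydrolase, stood at 45.2 against 62.2 FPKM (0.73, 0.64 to 0.82). Gch1, that cyclohydrolase, makes the cofactor of nitric oxide synthases and stood at 10.5 against 9.33 FPKM (1.12, 1.03 to 1.23), but its difference of 0.15 became -0.07 after subtraction of the GC trend. Calm2, 1 of the genes for calmodulin, a subunit bound by NOS2, stood at 52.5 against 33.9 FPKM (1.55, 1.41 to 1.70), while Calm3 stood at 127 against 130 FPKM (0.97, 0.93 to 1.01). Odc1, which directs ornithine to polyamines, was the most abundant gene of the list, at 689 against 832 FPKM (0.83, 0.82 to 0.84). Ass1, which recycles citrulline to arginine, stood at 1.61 FPKM in both libraries.

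Genes of prostanoid and leukotriene synthesis had a median difference of -0.07 over 12 measured genes, 5 of them above 0. Ptges3, the cytosolic prostaglandin E synthase, stood at 59.8 against 42.1 FPKM (1.42, 1.33 to 1.52), and Hpgds, the hematopoietic prostaglandin D synthase, at 1.54 against 0.780 FPKM (1.98, 1.49 to 2.64). Pla2g4a, the phospholipase that frees arachidonic acid, stood at 9.07 against 6.24 FPKM (1.45, 1.31 to 1.61). Ptgs1, the constitutive relative of Ptgs2, stood at 1.95 against 3.13 FPKM (0.63, 0.49 to 0.79). Ptgs2 was therefore 13.6 times as abundant as Ptgs1 in the siRNA-labelled library and 7.77 times in the control. The ratio of their count ratios was 1.74 (1.36 to 2.24), without adjustment for GC content (40.0% in Ptgs2 and 51.0% in Ptgs1). Subtraction of the GC trend brought their differences from 0.12 and -0.48 to -0.22 and -0.55, which lie closer together. On the leukotriene side, Alox5ap stood at 149 against 170 FPKM (0.88, 0.84 to 0.92) and Alox5, the lipoxygenase it assists, at 8.42 against 11.1 FPKM (0.75, 0.67 to 0.85).

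Genes that hold TGF-β1 latent or carry its signal had a median difference of 0.11 over 10 measured genes, the same as all genes to 2 decimals. Smurf2, a ubiquitin ligase that limits the signal, stood at 1.82 against 1.07 FPKM (1.69, 1.31 to 2.18), and Smad4, the partner of the receptor-activated SMADs, at 10.2 against 8.25 FPKM (1.23, 1.08 to 1.39). The corepressor Tgif1 had 3110 against 2565 counts and a difference of 0.24, or -0.02 after subtraction of the GC trend. Nrros, which anchors latent TGF-β1 on macrophages, stood at 4.78 against 4.85 FPKM (0.99, 0.84 to 1.16).

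Other cytokines of macrophages had a median difference of 0.02 over 14 measured genes, 8 of them above 0. Spp1 (osteopontin) and Mif were far more abundant than any of the 10 genes, at 6249 against 5410 FPKM and 1431 against 1647 FPKM. The difference of Spp1, 0.21, became -0.09 after subtraction of the GC trend. Il10, the anti-inflammatory cytokine, stood at 2.71 against 1.71 FPKM with an interval from 1.01 to 2.49. Tnfsf13 (APRIL, a B cell survival factor) stood at 1.39 against 2.54 FPKM (0.55, 0.35 to 0.84).

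**Figure D5:**
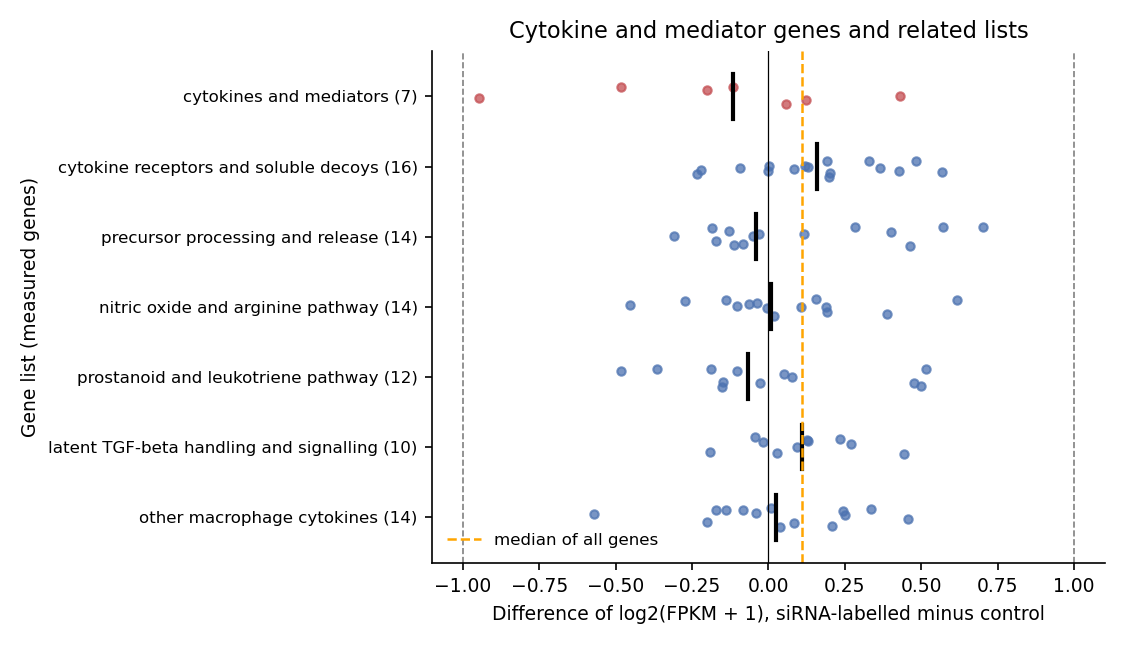
Difference of log2(FPKM + 1) of each measured gene (points, spread vertically for legibility) and the median (black bar) for the cytokine and mediator genes and 6 lists of related genes. The orange dashed line is the median of all genes, 0.11, and the grey dashed lines mark 2-fold on this scale. No point lies past the grey lines, and the medians run from -0.12 to 0.16.

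In the pathway annotation of the deposited table, 8 of the 10 genes were listed under cytokine-cytokine receptor interaction, which held 184 of the 6086 genes with any pathway. The exceptions were Nos2 and Ptgs2, which are enzymes. The other genes of that pathway had a median difference of 0.08 over 57 measured genes, with 38 above 0. One of them was 2-fold or more higher. It was Epo (erythropoietin), at 15.7 FPKM and listed at 0 in the control library, which overlaps the abundant Gnb2 on the same strand. The TNF signalling pathway without the 10 genes had a median of 0.12 over 71 measured genes, 0 of them past 2-fold. For the NF-kappa B pathway it was 0.12 over 60 genes, 0 of them past 2-fold. Tnf, at 0.43, lay above all 3 medians, while Il18, Nos2, Tgfb1, Il1rn and Csf3 lay below them. Ptgs2, at 0.12, lay above the first median and just below the others.

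Several facts of both libraries bear on these values. The library totals were 55411201 and 54847367 counts. Sfswap, the gene that the siRNA was labelled as targeting, stood at 3.38 against 2.92 FPKM with a ratio of 1.16, so no lower level of the target was seen. The directions given here describe a library by its label and do not follow from a measured loss of Sfswap. All 10 macrophage markers had counts in both libraries, from 12.7 to 15652 FPKM in the control, and 5 of the 10 were higher in the siRNA-labelled library. Lyz2 (lysozyme) made up 87.2% of their summed FPKM in the control. Their summed counts had a ratio of 0.90 (0.89 to 0.90), and 0.92 (0.91 to 0.93) without Lyz2, an alternative added after the data were seen. The 15 heart muscle markers summed to 13479 against 419 counts, with 8 of them at 0 in the control library, including Actc1, Myl2 and Myl3. Of 10 fibroblast markers 9 were in the table and summed to 422 against 66 counts. Col1a2, Col3a1, Dcn and Fbln1 were at 0 in the control library only and Lum in both. The highest fibroblast level was 0.261 FPKM in the siRNA-labelled library and 0.241 FPKM in the control. Red blood cell markers summed to 423 against 6 counts and endothelial markers to 251 against 158. The neutrophil markers Elane and Ltf were at 0 in both libraries, and 3 lymphocyte markers summed to 28 against 19 counts. These sums moved with the same contrast as the cytokine genes, and their part in the differences was not tested. In bulk RNA, fewer cells of a type and less RNA per cell cannot be told apart.

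No transcript of the 10 genes shared a stretch of at least 100 bases at 98% identity with another gene of the table, and none overlapped a gene on the same strand. On the opposite strand Il1b overlapped Il1bos, with 4 against 0 counts, and Il18 overlapped Bco2, with 90 against 109 counts. The strandedness of the libraries is not given in the sources used here, so reads of such pairs cannot be told apart.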

How the data were processed

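Per the labels' protocols, poly(A) RNA was selected and sequenced in paired ends (Illumina NovaSeq). The 2 libraries were grouped by treatment label. HISAT2 2.0 and StringTie 1.3.0 are named in the submitters' processing notes, and no source used here gives the genome build or annotation. FPKM values were deposited by the authors, scaled to transcript length and library size. The authors also deposited estimated counts, which are whole numbers: of those from 1 to 20, 45.1% and 42.7% were multiples of 4, so 4 counts were taken as 1 read pair. All 24034 identifiers were found in GENCODE vM21, and 89.9% had identical coordinates there. Columns of values left unmatched to a library numbered 0.

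The measure was the difference of log2(FPKM + 1) over genes whose mean reached 1 FPKM, called by a size limit of 2-fold. No count test was run, since 1 library per group gives no replicate error. Ratios of read pairs per library total have exact Clopper-Pearson 95% limits, conditional on the sum of both libraries, and levels exact Poisson limits. The libraries carry no stated molecular identifiers, so these limits cover counting error only. Ratios of count ratios have exact conditional limits of the odds ratio. GC content was that of the longest transcript, with a lowess span of 0.3. Shared sequence was found with blastn 2.17.0. The 10 genes and all lists were chosen with earlier results of these data known. The naming rule took the 10 genes, Sfswap, genes overlapping them on the same strand and, from each related list, the 2 largest differences and the 2 most abundant genes. Other genes, among them Csf3r, Tgfbr2, Nlrp3, Adam17, Gch1, Ass1, Pla2g4a, Ptgs1, Alox5, Nrros, Lta, Ltb, Epo and the Zfp36 family, were named after their values were seen. Gene ontology terms were not used here. The size limit and the counting intervals were run on simulated Poisson counts with known folds. That simulation held no spread between cultures and no GC trend, so it checks the calculation only. The software was Python 3.11.15, scipy 1.17.1, numpy 2.4.6, statsmodels 0.14.6, matplotlib 3.10.9 and pandas 2.3.3.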

Additional observations from a re-analysis of the deposited data

How the results depend on the processing

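Tnf stayed above 0 and Csf3, Il1rn, Nos2 and Tgfb1 below 0 under every alternative run for them (pseudocounts of 0.1 and 5, no minimum or 5 FPKM, centring on the median of all genes, upper quartile scaling, counts scaled to the library total and GC adjustment). Their ranges were 0.32 to 0.44, -1.17 to -0.52, -0.80 to -0.19, -0.23 to -0.11 and -0.31 to -0.19. Il18 kept its sign in 6 of 8 and Ptgs2 in 7 of 8. The median difference of the measured genes, -0.12, was 0.058 over the 5 genes whose mean reached 5 FPKM, since Csf3 and Il1rn drop out there, -0.23 when centred on the median of all genes (a shift of 0.11) and -0.22 with the GC adjustment. The count of genes past 2-fold, 0, was 1 with a pseudocount of 0.1, 1 when centred and 1 in counts scaled to the library total, and it was 1 at a limit of 1.5-fold and 3 at 1.2-fold. Of the 6 related lists, the medians of the receptor and the precursor lists kept their sign in 8 of 8 alternatives. The others did not: the prostanoid median kept it in 7 of 8 (-0.18 to 0.03), the TGF-beta median in 6 of 8 (-0.01 to 0.25), and those of nitric oxide (-0.10 to 0.02) and of other cytokines (-0.11 to 0.04) in 4 of 8. No gene overlapped a cytokine or mediator gene on the same strand, so sums with such genes gave no value. No paired analysis was possible because each group was 1 library. Depth limits Il1b, Csf1 and Il6, which rest on 23 read pairs or fewer in each library.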
